A study of Sus scrofa with 12 samples.

Results

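The insulin-like growth factor (IGF) axis is described here through 9 genes measured in *Longissimus dorsi* muscle, which are the ligands *IGF1* and *IGF2*, the receptors *IGF1R* and *IGF2R*, and the binding proteins *IGFBP3*, *IGFBP4*, *IGFBP5*, *IGFBP6* and *IGFBP7*. They were chosen by name as members of the axis, and they are 9 of the 13311 genes with at least 1 assembled transcript in the series. RNA-seq was carried out on 12 castrated male pigs of a purebred Iberian line, fattened outdoors on acorns and grass. The Tough group held 6 animals with high breeding values for shear force, the force needed to cut cooked loin, and the Tender group held 6 animals with low values. Shear force was 7.32 to 10.63 kg/cm2 in Tough animals and 2.18 to 3.43 kg/cm2 in Tender animals, and the breeding values were 1.76 to 2.40 in Tough animals and −1.09 to −0.98 in Tender animals. Each library was 1 animal, no animal received an experimental treatment, and the groups were extremes of a selected trait rather than a random sample. No source used here gives the fattening batch or the sequencing lane of an animal, so their part in any difference was not tested. The study also reports less intramuscular fat in its Tough animals than in its Tender animals. The groups thus differ in more than shear force, and the part of fat content in any difference was not tested.

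IGF1 and IGF2 are small hormones that act through the IGF1 receptor, a tyrosine kinase of the insulin receptor family, and in muscle they drive the proliferation and differentiation of satellite cells and the protein synthesis of fibres. IGF2R, the cation-independent mannose 6-phosphate receptor, takes up IGF2 for degradation and sorts lysosomal enzymes. The binding proteins hold the IGFs in blood and tissue and release them when proteases cut them, and some of them also act on cells without IGF. *IGFBP5* is known in muscle cell cultures as the binding protein that is secreted during differentiation and that binds to extracellular matrix.

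The joins between coding exons distinguish the assembled forms of these genes, and the sequences below were read from the Sscrofa11.1 genome, with 30 bases before each join. For *IGFBP5* (chr15:118861816-118877787, minus strand) the joins across its 3 annotated introns are shown because all of them were assembled in each of the 12 libraries, and the capitals mark the first 30 bases of the downstream exon.
IGFBP5 intron 1: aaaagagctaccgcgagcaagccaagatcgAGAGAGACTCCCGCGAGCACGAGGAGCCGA
IGFBP5 intron 2: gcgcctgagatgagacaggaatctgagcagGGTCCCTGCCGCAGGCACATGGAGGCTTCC
IGFBP5 intron 3: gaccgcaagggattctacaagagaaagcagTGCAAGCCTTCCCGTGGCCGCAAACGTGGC
A further annotated *IGF1* join from the same exon as those below, across an intron of 77559 bases, was assembled in no library and is not shown. For *IGF1* (chr5:81762027-81909253, plus strand) the join that was assembled is shown beside the annotated join to a short exon, which was not. The capitals again mark the first 30 bases of the downstream exon.
IGF1 join as assembled: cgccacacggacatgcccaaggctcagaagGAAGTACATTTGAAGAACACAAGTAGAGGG
IGF1 join to the short exon: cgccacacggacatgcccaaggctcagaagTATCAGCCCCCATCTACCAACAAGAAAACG
For *IGF2* (chr2:1469183-1496417, minus strand) the 2 forms of 1 coding join are shown because both were assembled, and the capitals mark the 9 bases that only the longer form holds.
IGF2 shorter form: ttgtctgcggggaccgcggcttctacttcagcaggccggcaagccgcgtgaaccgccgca
IGF2 longer form: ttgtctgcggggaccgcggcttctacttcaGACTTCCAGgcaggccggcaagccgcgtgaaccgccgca
For *IGFBP6* (chr5:18352884-18357225, plus strand) the 2 annotated forms of its first coding join are shown, and the capitals mark the 33 bases between their acceptors.
IGFBP6 join as assembled: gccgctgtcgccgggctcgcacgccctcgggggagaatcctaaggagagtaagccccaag
IGFBP6 join not assembled: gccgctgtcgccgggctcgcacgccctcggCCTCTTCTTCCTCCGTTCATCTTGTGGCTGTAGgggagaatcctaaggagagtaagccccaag

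Levels are FPKM, a count of sequenced fragments scaled for the length of the transcript and for the total mapped in the library. *IGF1*, *IGF2*, *IGF1R*, *IGF2R* and *IGFBP6* were measured from transcripts of which 50% or more lay in exons of the gene. *IGFBP3*, *IGFBP4*, *IGFBP5* and *IGFBP7* were measured per exon base, from the part of every transcript that lay in their exons, since their annotated models end well short of the assembled transcripts and the first measure listed *IGFBP3*, *IGFBP4* and *IGFBP5* at 0 in each of the 12 libraries. The deposited files hold no read counts, so the number of fragments behind a value is unknown. Muscle fibre markers dominated every library, with a summed level of 20999 to 29191 FPKM over 9 genes in Tough and 13187 to 27535 FPKM in Tender.

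*IGFBP5* was the gene of the axis that stood apart between the groups, with a mean of 9.27 ± 3.26 FPKM in Tough and 3.65 ± 1.75 FPKM in Tender (SD, n = 6 each), a ratio of means of 2.54. In Tough animals 1 to 6 its level was 10.8, 8.72, 4.37, 7.75, 14.1 and 9.84 FPKM, and in Tender animals 1 to 6 it was 5.89, 2.73, 2.43, 5.75, 1.80 and 3.27 FPKM. The level exceeded that of every Tender animal in 5 of 6 Tough animals. The exception was Tough 3, which lay below Tender 1 and Tender 4, so the groups overlapped. On the log2(FPKM + 0.5) scale the difference was 1.27 ± 0.30 (SE, limma), which understates the change of low values. The limma p of *IGFBP5* was 0.00083 before adjustment and 1.00 after Benjamini-Hochberg adjustment over the 9391 genes tested per exon base, so it was not called. The exact permutation test over all splits of the 12 animals into 6 and 6, two-sided, gave p = 0.0065 for this gene alone, against a smallest possible 0.0022.

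Calling a gene required a limma p no higher than 0.05, an adjusted p no higher than 0.10 and a 1.5-fold change, and 0% of the 9391 genes measured per exon base and 0% of the 9120 genes measured from assigned transcripts were called by limma. Before adjustment, 2.73% of the genes per exon base and 2.46% of those from assigned transcripts had a limma p of at most 0.05, and 0.724% of the genes per exon base had such a p with a higher level in Tough. By the exact permutation test the shares were 2.66% per exon base and 2.43% from assigned transcripts, and the share with such a limma p and a higher level in Tough from assigned transcripts was also 0.724%. The share higher in Tough depended on scaling between libraries. Of the 256 genes per exon base with such a limma p, 68 were higher in Tough, against 137 of 287 after median-of-ratios scaling. *IGFBP5* ranked 6 by limma p among all genes per exon base and 1 among the 3657 that were higher in Tough. The study listed *IGFBP5* among its differentially expressed genes, by a test (Cuffdiff) on the aligned reads of these animals and 1 more. Its method and its animals thus differ in part from those here, where no gene was called. The animals are largely the same, so the rank and the p of *IGFBP5* here are not independent evidence of a difference.

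**Figure D1:**
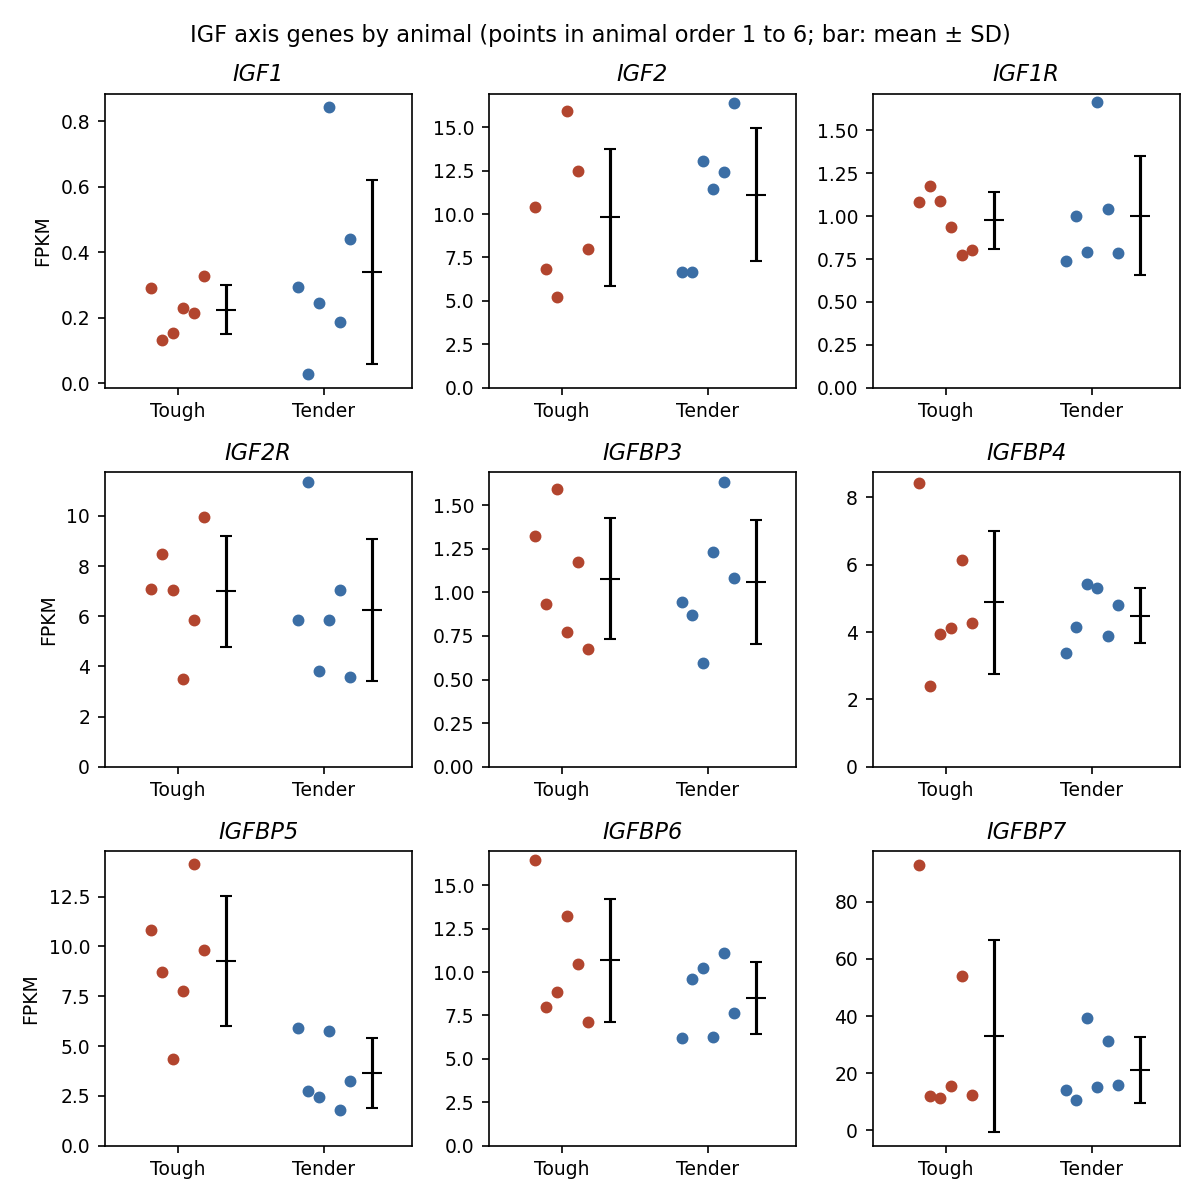
FPKM (vertical axes, linear) of the 9 genes in each Tough animal (left in each panel) and each Tender animal (right), with the mean ± SD of the 6 animals beside the points. *IGFBP5* was 4.37 to 14.1 FPKM in Tough and 1.80 to 5.89 FPKM in Tender, while the points of the other 8 genes overlapped more widely.

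The difference in *IGFBP5* was borne by a single kind of transcript. Each library held a transcript of 4 exons with the 3 annotated introns, 5817 to 6195 bases long, of which 967 bases lay in the annotated exons. It ran 4337 to 4480 bases past the annotated end and 507 to 748 bases before the annotated start in every library. The start lay 736 to 748 bases upstream in 5 Tough and 3 Tender libraries, and 507 to 546 bases upstream in Tough 3 and 3 Tender libraries. The 4 libraries with the nearer start were among the 5 with the lowest *IGFBP5* levels, and whether the assembled start depended on the level was not tested. Mean read coverage of the transcript was 28.9 to 109 in Tough and 10.5 to 45.1 in Tender. The interval that Cufflinks gave for it was 4.05 to 4.69 FPKM in Tough 3, against 5.53 to 6.26 FPKM in Tender 1 and 5.37 to 6.13 FPKM in Tender 4. These intervals did not overlap, so the counting error within a library was smaller than the spread between animals. Tender 5 held a further transcript of 1 exon in the 3' part of the gene at 0.813 FPKM.

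**Figure D2:**
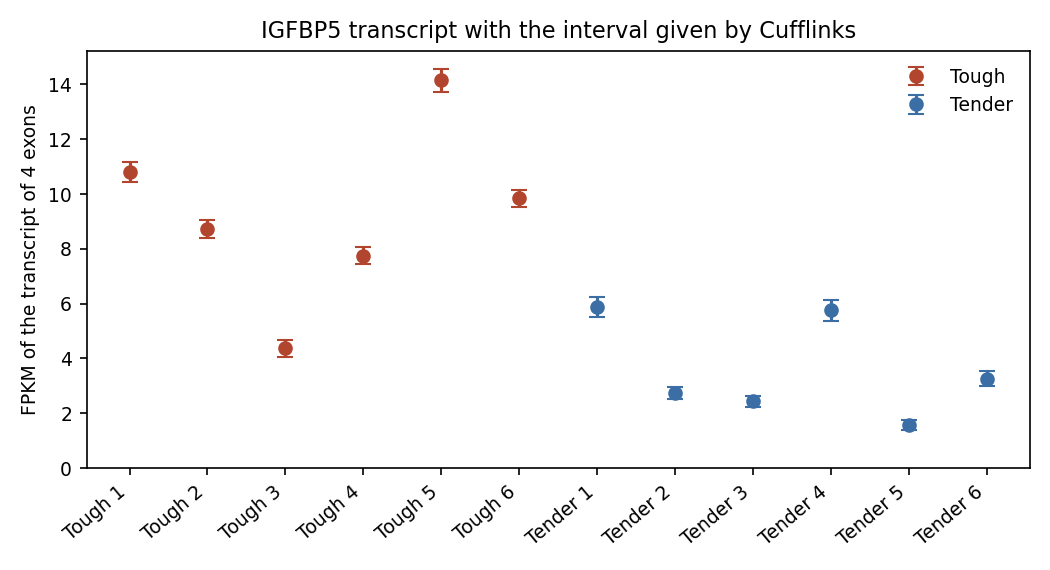
FPKM of the *IGFBP5* transcript of 4 exons (vertical axis) in each library (horizontal axis, Tough left and Tender right), with bars for the interval that Cufflinks reported within the library. The bars are short beside the spread between animals, which runs over 4.37 to 14.1 FPKM in Tough and 1.56 to 5.89 FPKM in Tender.

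Cell type markers were set beside *IGFBP5*, since in bulk muscle a larger number of cells of a type and more RNA per cell cannot be told apart. The 10 fibroblast markers all had a positive difference, with a median of 0.19 against −0.04 for all genes per exon base, and 0 of the 10 had a limma p of at most 0.05. Their summed level was 77.2 to 252 FPKM in Tough and 78.4 to 173 FPKM in Tender. The study, with its own test on largely the same animals, lists *COL1A1*, *COL1A2* and *THY1* of these markers as higher in Tough. The 7 endothelial markers tested all had a negative difference, *CLDN5* being listed at 0 in every library, with a median of −0.23, 0 of 7 at that p, and sums of 16.7 to 34.8 FPKM in Tough and 27.1 to 43.7 FPKM in Tender. Of 8 smooth muscle and pericyte markers, 6 had a positive difference, and their sums were 38.0 to 79.9 FPKM in Tough and 45.1 to 65.7 FPKM in Tender. The 9 muscle fibre markers tested also all had a positive difference, with a median of 0.16 and 0 of 9 at that p. Satellite cell markers had 2 positive and 1 negative, macrophage markers 2 and 3, and adipocyte markers 1 and 3. Sums of the adipocyte markers were 17.2 to 39.8 FPKM in Tough and 11.4 to 34.0 FPKM in Tender. The 1 Schwann cell marker tested had a positive difference. Whether the content of any of these cell types had a part in the *IGFBP5* difference was not tested.

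The 3 tested genes whose levels followed *IGFBP5* most closely over the 12 libraries, among 8552 with a value in each library, were *GRAMD2A*, *ZNF704* and *NMNAT3*, with Pearson r of 0.89, 0.88 and 0.88. *NMNAT3*, an enzyme of NAD synthesis, had 2.42 to 4.95 FPKM in Tough and 2.06 to 3.25 FPKM in Tender. *ZNF704*, a zinc finger gene, had 0.637 to 1.20 FPKM in Tough and 0.239 to 0.775 FPKM in Tender. The values of *GRAMD2A* included another gene, since a transcript with exons of its upstream neighbour *PKM* ran into its first exon in 5 Tough and 5 Tender libraries. Within groups the r with *IGFBP5* was 0.92 in Tough and 0.88 in Tender for *NMNAT3*, and 0.41 in Tough and 0.95 in Tender for *ZNF704*. These are descriptions over libraries that share their processing, and no test was made of them.

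The other binding proteins showed smaller differences, none of which exceeded the spread between animals. None of the 9 genes was called, 0 of the 9 had groups without overlap, and 1 of the 8 tested by limma, *IGFBP5*, had a p of at most 0.05. Groups without overlap were rare in the whole series too, at 0.0987% of genes from assigned transcripts and 0.0745% per exon base. Across the 9 genes 6 differences were positive and 3 negative, with a median of 0.04, against −0.04 for all genes tested.

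*IGFBP6*, a binding protein with a preference for IGF2, had a lowest, median and highest level of 7.14, 9.67 and 16.4 FPKM in Tough and 6.23, 8.62 and 11.08 FPKM in Tender. The difference was 0.29 ± 0.22 (SE, limma), with an exact permutation p of 0.234. Tough 1 and Tough 4 lay above all Tender animals and the other 4 lay within the Tender range. Every library used the downstream acceptor of the first coding join, so the 33 bases printed in capitals were in no assembled transcript. Transcripts of 5 exons were assembled beside that of 4 exons in 4 libraries, and their extra introns, none of them annotated, were of 3 kinds. An intron of 1270 bases was in Tough 3 at 6.32 FPKM and in Tender 2 at 8.52 FPKM, one of 1049 bases was in Tough 4 at 15.5 FPKM, and one of 609 bases was in Tough 1 at 11.7 FPKM.

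*IGFBP4*, which mostly restrains IGF action and is cut by the protease PAPPA, had a lowest, median and highest level of 2.38, 4.19 and 8.44 FPKM in Tough and 3.39, 4.47 and 5.42 FPKM in Tender. Both the highest and the lowest animal of the series were Tough, and the difference was 0.04 ± 0.23 (SE, limma). All assembled transcripts ran 943 to 1046 bases past the annotated end. A form of 4 exons was assembled in each of the 12 libraries, and a form with a further exon upstream of the annotated start, across an intron of 741 bases, in 3 Tough and 3 Tender libraries. That form stood at 0.312 to 4.63 FPKM in Tough and 0.645 to 3.13 FPKM in Tender. Tough 5 held a different transcript of 5 exons, with an intron of 226 bases past the annotated end, at 2.34 FPKM.

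*IGFBP3*, the main carrier of IGFs in blood, was low at 0.676, 1.05 and 1.59 FPKM in Tough and 0.593, 1.01 and 1.64 FPKM in Tender as the lowest, median and highest animal. The ranges nearly coincided, and the difference was 0.02 ± 0.18 (SE, limma). Each library held 1 *IGFBP3* transcript with the 4 annotated introns, which ran 1168 to 1282 bases past the annotated end at a coverage of 5.56 to 13.3.

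*IGFBP7*, a secreted relative of the family with weak affinity for IGFs that is abundant in vessels, had 92.9, 11.9, 11.3, 15.5, 53.9 and 12.5 FPKM in Tough animals 1 to 6 and 14.2, 10.6, 39.3, 15.3, 31.2 and 16.0 FPKM in Tender animals 1 to 6. Those values fell into a low and a high class that cut across the groups. The 4 high libraries, Tough 1, Tough 5, Tender 3 and Tender 5, held a transcript of 971 to 1002 bases that stopped within the annotated gene. The other 8 libraries held a transcript of 4278 to 4484 bases that ran 3156 to 3373 bases past the annotated end into *POLR2B*, a gene on the opposite strand whose annotated end overlaps that of *IGFBP7* by 279 bases. The libraries carry no strand, so reads of these 2 genes cannot be told apart there.

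The level of *IGFBP7* thus moved with the length of the transcript that was assembled. As FPKM multiplied by transcript length in kilobases, which undoes the division by length, the levels were 35.6 to 104 in the 4 libraries with the short transcript and 45.6 to 70.2 in the 8 with the long one. In those 8 libraries this scale also counts the part of the transcript that runs into *POLR2B*, which the short transcripts lack. The short and long classes are thus not measured alike, and the values are not those of *IGFBP7* alone. On that scale the Tough animals had 49.0 to 104 and the Tender animals 35.6 to 70.2, and the difference was 0.26 ± 0.21 (SE, limma). Per exon base the difference was 0.25 ± 0.52, and without Tough 1 it was −0.15, so its sign rested on that library.

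**Figure D3:**
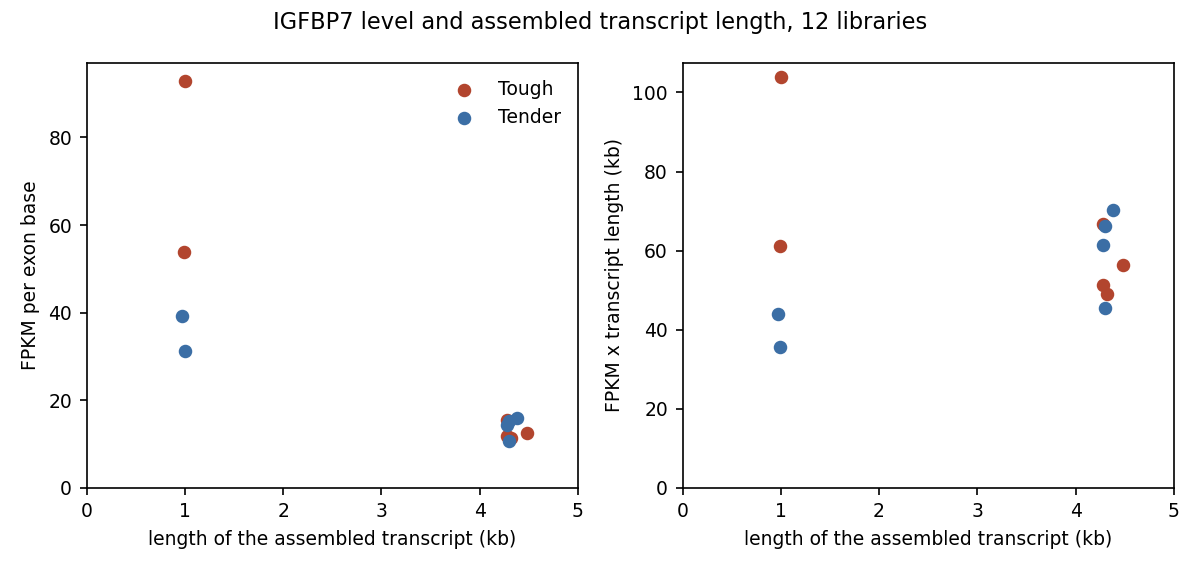
*IGFBP7* level against the length of its assembled transcript in kilobases, 1 point per library, per exon base in FPKM (left panel) and as FPKM multiplied by transcript length in kilobases (right panel). The 4 libraries with a transcript of 971 to 1002 bases hold the high values per exon base, from both Tough and Tender, and the 2 classes overlap in the right panel. There the long transcripts also count their part in *POLR2B*.

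Of the ligands, *IGF2* was abundant and *IGF1* was near the limit of assembly. *IGF2* had 10.4, 6.84, 5.20, 15.9, 12.5 and 8.003 FPKM in Tough animals 1 to 6 and 6.67, 6.68, 13.1, 11.4, 12.4 and 16.4 FPKM in Tender animals 1 to 6. Both groups spread over about the same range, the difference was −0.19 ± 0.29 (SE, limma), and the exact permutation p was 0.539. When 90% of a transcript had to lie in the gene the difference was −0.65, and no setting tried gave a limma p under 0.05.

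The assembled *IGF2* transcripts held few of the annotated leader joins. Of 7 annotated joins from a leader to the first coding exon, 2 were assembled. The farther of the 2 was present in each of the 12 libraries and the nearer in 3 Tough and 4 Tender libraries, while the 5 others were in none. Farther upstream, the annotated join between a pair of leader exons (intron of 536 bases) was assembled in Tough 1, Tough 5 and Tender 5, and joins that are not annotated, between 2 leader regions, were assembled once each in Tough 5 (intron of 1652 bases) and Tender 2 (intron of 1533 bases). Among transcripts with either join, the nearer leader took 0% to 64.6% of the FPKM in Tough and 0% to 76.5% in Tender, so the choice varied among animals of both groups. These shares rest on how Cufflinks divided reads among overlapping transcripts.

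Both forms of the *IGF2* coding join printed above were assembled. The shorter form was in each of the 12 libraries and the longer form in 11, Tough 1 being the exception. The longer form took 24.7% to 52.7% of the FPKM in the 5 Tough libraries that had it, and 15.6% to 38.7% in Tender, with medians of 30.9% over all 6 Tough and 23.3% over the Tender animals. The ranges overlapped, and no test was made of the difference. The 9 added bases are 3 codons and keep the reading frame, and a form of the human hormone with a short insertion at this place is known. The intron of the shorter form (chr2:1472991-1474895) ends in AG in the genome and that of the longer form (chr2:1473000-1474895) ends in GG, which is not the usual end of an intron. Both introns are annotated, and whether reads or an annotation given to the aligner placed the longer form could not be settled, so its shares are those of assembled transcripts and not of a protein form.

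**Figure D4:**
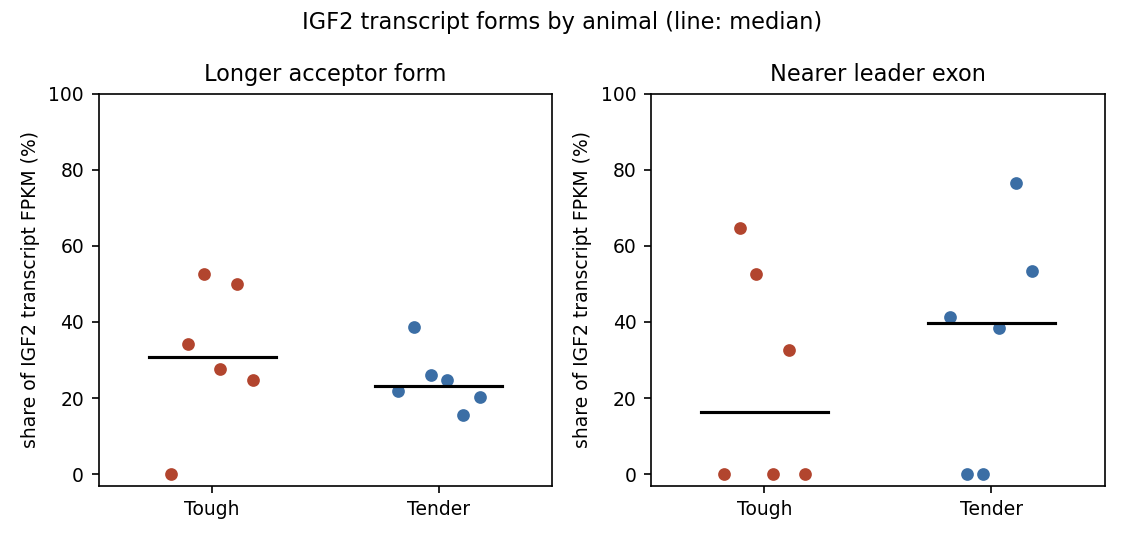
Share of *IGF2* transcript FPKM in percent (vertical axes) in each Tough animal (left in each panel) and each Tender animal (right), for the longer form of the coding join and for the nearer leader exon, with the median as a line. The longer form has medians of 30.9% in Tough and 23.3% in Tender, and the animals of the groups overlap in both panels.

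*IGF1*, the mediator of growth hormone that muscle also makes locally, had 0.291, 0.133, 0.154, 0.230, 0.215 and 0.329 FPKM in Tough animals 1 to 6 and 0.296, 0.0277, 0.245, 0.845, 0.186 and 0.440 FPKM in Tender animals 1 to 6. The Tough values lay inside the Tender range, which Tender 2 and Tender 4 bounded. The mean was 0.283 FPKM, under the 0.5 FPKM needed for the limma fit, so the gene was tested alone, and the difference was −0.16 with an exact permutation p of 0.485. Without Tender 4 the difference was −0.01. A spliced transcript was assembled in 3 Tough and 3 Tender libraries, at 0.567 to 0.772 FPKM in Tough and 0.351 to 1.604 FPKM in Tender, and the remaining 26 transcripts had 1 exon. The coverage of the spliced transcripts was low, at 2.91 to 9.78.

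Each of the 6 spliced *IGF1* transcripts used the same leader exon and the same join printed above, which skips a short exon of 52 bases (chr5:81830957-81847813 for the intron). Inclusion of that exon shifts the reading frame of the carboxyl-terminal extension, and the resulting form is known in muscle as mechano growth factor. No library held it. At these levels its absence from the assemblies says only that it was not assembled.

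The receptors differed little. *IGF2R* had a lowest, median and highest level of 3.49, 7.09 and 9.96 FPKM in Tough and 3.57, 5.83 and 11.3 FPKM in Tender, a difference of 0.19 ± 0.28 (SE, limma) that was −0.05 with a plain sum of transcripts. It was assembled as 1 transcript of 48 exons in 2 Tough and 2 Tender libraries and in pieces elsewhere, and all 47 annotated introns were found. *IGF1R*, the signalling receptor, had 0.775, 1.01 and 1.17 FPKM in Tough and 0.739, 0.894 and 1.66 FPKM in Tender. The difference was −0.00 ± 0.15 (SE, limma), and its sign turned in several settings. Tender 4, which had the highest *IGF1R* level at 1.66 FPKM, also had the highest *IGF1* level.

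**Figure D5:**
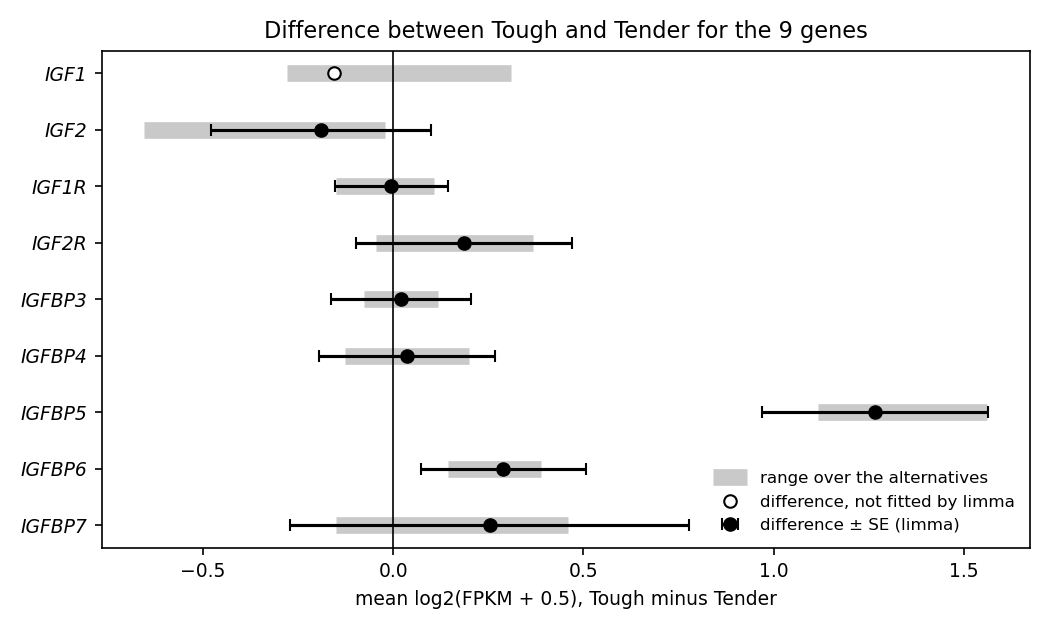
Difference in mean log2(FPKM + 0.5), Tough minus Tender (horizontal axis), for the 9 genes, with the limma SE as error bars and the range over the alternative settings as grey bands; *IGF1* was not fitted by limma. The *IGFBP5* band runs from 1.12 to 1.56, and the other 8 points lie between −0.19 and 0.29.

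Per exon base, the 9 genes were ordered by level over all 12 libraries. Differences between neighbours were tested by an exact sign-flip permutation test and adjusted over 8 neighbouring pairs. The neighbours were taken from these same values, so the p-values are not independent evidence of the order. *IGFBP7* was highest at 27.0 ± 24.8 FPKM (SD, n = 12), and it was above *IGF2* at 9.78 ± 3.47 FPKM in 12 of 12 libraries (exact permutation, adjusted p = 0.0013). *IGF2* and *IGFBP6*, at 9.52 ± 2.98 FPKM, did not differ beyond their spread (exact permutation, adjusted p = 0.945), and neither did *IGFBP5* and *IGF2R*, at 6.46 ± 3.85 and 6.13 ± 2.35 FPKM, nor *IGF2R* and *IGFBP4*, at 4.68 ± 1.54 FPKM. *IGFBP6* was above *IGFBP5* in 9 of 12 libraries (exact permutation, adjusted p = 0.0439). The exceptions were Tough 2, Tough 5 and Tough 6, so the group difference of *IGFBP5* enters this pair. *IGFBP4* was above *IGFBP3*, at 1.07 ± 0.34 FPKM, in 12 of 12 libraries (exact permutation, adjusted p = 0.0013). *IGFBP3* and *IGF1R*, at 0.928 ± 0.257 FPKM, did not differ beyond their spread. *IGF1* was lowest at 0.252 ± 0.153 FPKM and below *IGF1R* in 12 of 12 libraries. This order rests on division by all annotated exon bases, many of which were not assembled for *IGF1*. By the plain sum of transcript FPKM, a measure chosen after seeing the data that adds up the pieces of a gene, *IGFBP7* was above *IGF2* in 5 of 12 libraries and *IGF1R* above *IGF1* in 7 of 12, *IGF2* was above *IGFBP6* in 12, *IGFBP5* above *IGF2R* in 2 and *IGFBP3* above *IGF1R* in 1, while *IGFBP4* was again above *IGFBP3* in 12 of 12.

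Shear force itself was compared with each gene inside each group, because the groups do not overlap in shear force and a pooled correlation would restate the selection. Of 18 relations over 6 animals each, 0 had a Benjamini-Hochberg adjusted p of at most 0.05 by Pearson r or by Spearman rho. *IGFBP5* showed no relation inside either group, with r = −0.13 and rho = −0.14 in Tough (exact permutation p = 0.831 and 0.803, adjusted 0.865 and 1.00) and r = 0.10 and rho = 0.03 in Tender (exact permutation p = 0.865 and 1.00, adjusted 0.865 and 1.00). Without the 2 animals farthest from the median shear force, its r was −0.29 in Tough and 0.44 in Tender. The smallest p belonged to *IGF2R* in Tender, with r = −0.86 and rho = −0.60 (exact permutation p = 0.0278 and 0.242, adjusted 0.5 and 1.00). Its r was −0.27 without the extreme animals. The Tender animals left then spanned only 2.94 to 3.13 kg/cm2, so this cannot show what the relation rested on. These *IGF2R* levels left out a transcript of the gene in Tender 3, Tender 4 and Tender 6. *IGFBP6* in Tough followed with r = 0.81 and rho = 0.77 (exact permutation p = 0.0597 and 0.103, adjusted 0.538 and 1.00), and r was 0.48 without the extreme animals.

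Around the axis, none of the other pathway genes tested had a limma p of at most 0.05. *IGFALS*, which holds IGFs in a complex with binding proteins in blood, was too low for limma, with 0.126 to 0.846 FPKM in Tough and 0 to 0.316 FPKM in Tender from assigned transcripts (exact permutation p = 0.0281, not adjusted), and its exact permutation p per exon base was 0.149. Of 14 carriers and IGFBP-cleaving proteases, 5 were tested from assigned transcripts, 2 with a positive and 3 with a negative difference and a median of −0.02. *IGFBP1*, *IGFBPL1*, *PAPPA2*, *ADAM12* and *ADAM28* were listed at 0 in each of the 12 libraries, and these, *IGFALS* and the next 3 genes are named for their values. *HTRA1*, a serine protease able to cut IGFBPs, had the highest median of the list, with 14.3 to 21.7 FPKM in Tough and 11.7 to 34.1 FPKM in Tender, and *IGFBP2* had 2.21 to 7.97 FPKM in Tough and 3.72 to 6.38 FPKM in Tender. *PAPPA*, which cuts IGFBP4 and IGFBP5, was listed at 0 in 9 of the 12 libraries.

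Of 17 tested genes of signalling downstream of the IGF1 receptor, 7 had a positive and 10 a negative difference, with a median of −0.02 against −0.04 for all genes from assigned transcripts. The growth hormone input list had 4 positive and 1 negative difference among 5 tested, and the IGF2 transcription and mRNA binding list had 2 positive among 2 tested. *H19*, *ZBED6* and *AKT1* were not found by symbol in the annotation used here. The 3 genes closest to *IGF2* over the 12 libraries were *CYB5R1*, *FADS3* and *APOA1*, with Pearson r of 0.88, 0.84 and 0.84, and those closest to *IGF1* were *ACSL3*, *EPB41L4A* and *LRP6*, with r of 0.87, 0.86 and 0.86. The *IGF1* likeness came from Tender animals, with r of 0.98, 0.96 and 0.96 there and 0.08, −0.19 and 0.57 in Tough, and no test was made of it.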

How the data were processed

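Muscle RNA of 12 pigs was sequenced, per the labels, as paired 76-base reads with 4 samples per lane. Per the labels and the methods of the study, the authors checked and trimmed the reads with FastQC and Trim Galore, aligned them to Sscrofa11.1 with TopHat2 2.1.0 and assembled each library with Cufflinks 2.2.1. A further Tender animal of the study was not analysed here. The deposited files are 1 transcript assembly per library. They give FPKM with its interval and coverage per transcript, and no counts. A score per feature, written by Cufflinks in the deposited files, entered no result. The libraries held 25427 to 30952 transcripts on chromosomes, and 16.8% to 27.8% of them had no strand.

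Transcripts were overlapped with the RefSeq annotation of the same build (NCBI Annotation Release 106, 28195 genes on chromosomes) using bedtools 2.31.1. Transcripts without a strand counted for genes on either strand. A transcript was assigned to a gene with at least 50% of its bases in the exons, and FPKM times length was summed and divided by exon bases. *IGFBP5* was measured per exon base by design, and *IGFBP3*, *IGFBP4* and *IGFBP7* were moved to that measure after their values were seen, since they were listed at 0 in 8 or more of the 12 libraries. That measure weights the FPKM of each transcript by the share of the exon bases of the gene that it covers.

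Genes with a mean above 0.5 FPKM were fitted with limma 3.58.1 (R 4.3.3) on log2(FPKM + 0.5), with a trended prior and the group as the only factor, and p-values were adjusted over all genes of a table by Benjamini-Hochberg. Both tests were tested on simulated data. Exact permutation tests ran over all splits of the animals. Alternatives were the pseudocount, the filter, the scaling, the gene measure, robust and weighted limma, a replicate block and leaving out each library. Named genes were the 9 members, any pathway list gene with a limma p of at most 0.05 (at most 4 a list), and the 3 genes most correlated with *IGFBP5*, *IGF1* and *IGF2*. The members, lists and tests were chosen with earlier results of these data known. The p-values of limma and of the permutation over splits set a group difference against the spread between animals. Sequences were read with samtools 1.23.1.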

Additional observations from a re-analysis of the deposited data

Results flagged for a closer look

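In 18 groups of 6 values, 2 for each gene, 1 held a value that stood apart from the rest by Dixon's criterion for 6 samples, and chance alone marks about 1 in 20 such groups. It was *IGF1R* in Tender 4, at 1.66 FPKM, whose gap to the next animal was 0.674 of the range of the group. Leaving out Tender 4 also changed the counts over all genes from assigned transcripts, with 410 at a limma p of at most 0.05 against 224. This was not particular to Tender 4, since there were 369 without Tough 1 and 374 without Tender 1. Whether the whole library of Tender 4 differed from the others was not tested.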

How the results depend on the processing

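*IGFBP5* stayed higher in Tough in each of its 23 alternatives, with a log2 difference of 1.12 to 1.45 when each library was left out in turn and 1.16 to 1.56 in the others, a limma p of 0.00014 to 0.0024 and an adjusted p of 0.241 to 1.00. With the animal number as a replicate block its difference was 1.27 and its limma p 0.0015, and the block changed no call. The same number did not pair the animals, since the deviations of same-numbered animals correlated at −0.22 to 0.02. With the block 0 genes were called, with 177 (assigned transcripts) and 199 (per exon base) at p of at most 0.05.

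Leaving out libraries gave log2 differences of −0.28 to −0.01 for *IGF1*, −0.34 to −0.04 for *IGF2*, −0.055 to 0.11 for *IGF1R*, 0.06 to 0.37 for *IGF2R*, −0.077 to 0.12 for *IGFBP3*, −0.13 to 0.20 for *IGFBP4*, 0.16 to 0.39 for *IGFBP6* and −0.15 to 0.46 for *IGFBP7*. The sign of *IGF1* turned with a plain sum of transcripts (0.31) and with whole transcripts (0.058), that of *IGFBP3* with whole transcripts (−0.060), and that of *IGF2R* with transcripts at least 90% in the gene (−0.0035) and a plain sum (−0.045). *IGF1R* turned with a pseudocount of 0.1 (0.0016), median-of-ratios scaling (0.036), quantile normalization (0.0025), a plain sum (0.0081), array weights (0.038), stranded transcripts alone (0.0072) and whole transcripts (0.0034). The last 2 settings were chosen after seeing the data, and the cause of these turns was not tested.

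Against 224 genes at p of at most 0.05 from assigned transcripts there were 365 with no filter, 343 with the highest transcript alone, 385 with a plain sum, 655 with array weights, and 147 (without Tender 5) to 410 (without Tender 4) when a library was left out, where 369 and 374 came without Tough 1 and Tender 1. Per exon base there were 410 with no filter and 678 with array weights against 256, and 162 to 439 when a library was left out. Genes called stayed at 0 to 0 from assigned transcripts and 0 to 2 per exon base, where 2 came without Tender 2. Of the 224 genes, 66 were higher in Tough, against 144 of 282 with median-of-ratios scaling, 141 of 290 with quantile normalization, 279 of 655 with array weights and 250 of 410 without Tender 4. Per exon base 68 of the 256 were higher in Tough, against 137 of 287 with median-of-ratios scaling and 139 of 301 with quantile normalization.

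Without the 2 animals farthest from the median shear force, the correlation turned to 0.19 for *IGF1* in Tough, −0.34 for *IGF1* in Tender, −0.62 for *IGF2* in Tender, −0.73 for *IGFBP3* in Tough, −0.46 for *IGFBP4* in Tough, −0.65 for *IGFBP4* in Tender, −0.58 for *IGFBP7* in Tough and −0.54 for *IGFBP7* in Tender. That step also narrowed the range of shear force, to 2.94 to 3.13 kg/cm2 in Tender, so the cause of these turns cannot be told. *IGF1* and *IGF1R* gave no value with a mean above 1 FPKM, *IGF1* none in settings that keep the filter of 0.5 FPKM on assigned transcripts, apart from its pseudocount and left-out library values, which have no limma test, and *IGFBP3*, *IGFBP4* and *IGFBP5* none under measures from assigned transcripts, where they were listed at 0. Without read counts, no limit of detection could be set.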
